A study of Mus musculus with 6 samples.

Results

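The genes described here are 10 early neuronal genes, 8 coding for cytoskeletal or growth cone proteins and 2 for RNA-binding proteins, chosen by name from the 55471 genes counted in each library. They were Tubb3, Dcx, Map2, Stmn2, Gap43, Elavl3, Elavl4, Ina, Nefm and Nefl. Bulk RNA was sequenced from the rostral telencephalic primordium, the front wall of the forming forebrain, of E11.5 mouse embryos. There were 3 control samples, labelled WT and homozygous for the floxed Dicer allele without Cre (DicerF/F), and 3 Rx-Dicer samples, homozygous for the same allele and carrying Rx-Cre (RxCre-DicerF/F). Both groups therefore carried the floxed Dicer allele, and the comparison asked what the loss of Dicer did to these transcripts. Rx-Cre was present in the Rx-Dicer group alone, so its presence and the loss of Dicer cannot be told apart. Cre was driven by the regulatory sequences of Rax (Rx), which is active from the anterior neural fold onward. Recombination was not uniform over the telencephalon in this line, so a dissected piece could hold cells that kept Dicer. The Rx-Cre line was kept on a CD1 and the floxed Dicer line on a C57BL/6 background. Embryos of either sex were used, and the labels do not say how many embryos made up a sample.

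A new neuron of this age has just left the ventricular zone and rebuilds its cytoskeleton to migrate and to grow an axon. Neuron-specific tubulin, doublecortin, MAP2 and stathmins build and regulate its microtubules, GAP-43 lies under the membrane of the growth cone, and the ELAV-like proteins bind AU-rich and U-rich sequences in mRNAs. Neurofilament light, neurofilament medium and alpha-internexin assemble into the intermediate filaments of axons. Dicer cuts precursor hairpins into mature microRNAs, and a microRNA guides its complex to mRNAs, mostly through its seed, bases 2 to 8, which usually lowers the target.

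The library totals lay between 34471501 and 48373468 counts, and all 10 genes passed the filter on low counts and were tested. Values below are normalised counts, that is counts divided by the DESeq2 size factor of the library. A gene was called at a Benjamini-Hochberg adjusted p under 0.05 (DESeq2 Wald test over the whole table) together with an absolute log2 fold change above 0.32. The floxed gene itself checked the labels only in part, because its counts span all exons and not the deleted ones alone. Dicer1 had 6355, 7070 and 6270 normalised counts in the controls and 4777, 7002 and 4644 in Rx-Dicer (adjusted p = 0.567). The library labelled Rx-Dicer 2 thus lay within the control range for Dicer1, and for Nefl and Nefm the value without it is given below. Markers of neural progenitors and of pallial and subpallial neurons were present in all libraries, together with those of blood and head mesenchyme, and they do not show which part of the telencephalon was dissected. Progenitor markers summed to between 3994 and 4711 CPM, counts scaled by the library total, in the 6 libraries.

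The neurofilament genes Nefl and Nefm were the 2 of 10 genes called, both higher in Rx-Dicer. Among all 17128 genes tested, 2.93% were called, of which 1.75% were higher and 1.18% were lower. Nefl was 2.86-fold and Nefm 1.67-fold higher. The other 8 genes, among them the third filament subunit Ina, were not called. The tool decided the calls, because edgeR's quasi-likelihood test called none of the 10 genes and 8 genes, or 0.0446%, of the 17954 it tested. With edgeR, the adjusted p was 0.172 for Nefl and 0.212 for Nefm, and the unadjusted p was under 0.05 for both and for Gap43 and Elavl3, as it was for 12.9% of the genes edgeR tested. With DESeq2 this share was 13.1%. All 3 Rx-Dicer values lay above all 3 control values for 2 genes, Nefl and Nefm, against 8.55% of all genes tested. They lay below for 2 genes, Gap43 and Elavl3, against 10.7%. The median log2 fold change was -0.16 over the 10 genes and -0.00087 over all genes tested.

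**Figure D1:**
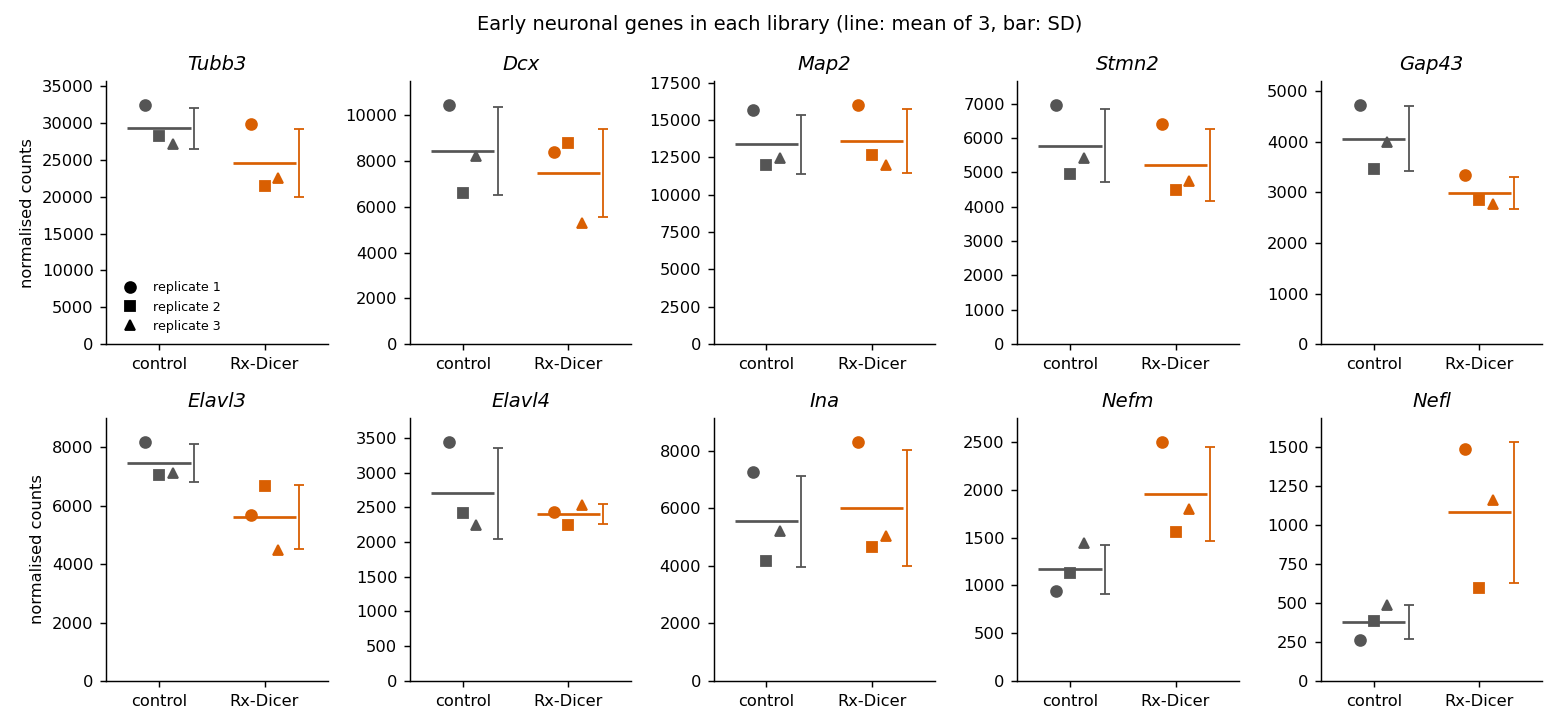
Normalised counts of the 10 early neuronal genes in each library, with control samples in grey and Rx-Dicer samples in orange. Symbols mark the replicate number, lines the mean of 3 samples and bars the SD. The groups do not overlap for Gap43 and Elavl3, lower in Rx-Dicer, and for Nefm and Nefl, higher in Rx-Dicer.

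Because Dicer makes microRNAs, the 3′ untranslated regions (3′ UTRs) of the genes were searched for seed matches before the values are given one by one. Each gene was represented by its transcript with the longest coding sequence. The search used 7 microRNAs that are known in the embryonic brain, taken from RefSeq and chosen after the values of the genes had been seen. Their mature sequences are shown because the seed, in capitals, defines the 7-base word that was looked for.
mmu-let-7g-5p: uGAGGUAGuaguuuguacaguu
mmu-miR-9-5p: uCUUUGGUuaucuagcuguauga
mmu-miR-92b-3p: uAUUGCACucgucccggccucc
mmu-miR-93-5p: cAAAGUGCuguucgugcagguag
mmu-miR-125b-5p: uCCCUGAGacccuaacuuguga
mmu-miR-128-3p: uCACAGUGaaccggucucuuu
mmu-miR-137-3p: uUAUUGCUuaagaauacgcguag

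The reverse complement of each seed was searched on the sense strand of the 3′ UTR. The words were CTACCTC for let-7g, ACCAAAG for miR-9, GTGCAAT for miR-92b and GCACTTT for miR-93. The others were CTCAGGG for miR-125b, CACTGTG for miR-128 and AGCAATA for miR-137. At least 1 word was found in 6 of the 10 genes. None was found in Tubb3, Map2, Elavl4 or Ina, whose 3′ UTRs were 333, 181, 2595 and 1677 bases long. Dcx, with a 3′ UTR of 7709 bases, held 5 of the 7 words. The called genes Nefl and Nefm shared the miR-92b word with Gap43, which was lower in Rx-Dicer without being called. This word was present in 7.04% of the 14051 tested genes with a 3′ UTR. The matches, in capitals, are shown with the bases on either side (GRCm38, sense strand of the mRNA), since they include the word common to both called genes and the let-7 match of Dcx.
Nefl, chr14:68087844-68087870, plus strand: ctcgagttatGTGCAATaaatagtaaa
Nefm, chr14:68119904-68119930, minus strand: attttcctttGTGCAATatgagggaac
Gap43, chr16:42248651-42248677, minus strand: aagtgtgtgtGTGCAATgttccgttct
Dcx, chrX:143860749-143860775, minus strand: ttgcttgttcCTACCTCctgactgttc

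The Nefl match began at base 407 of its 3′ UTR and the Nefm match at base 117. In both genes the base after the match was an A, the base that commonly lies opposite the first base of a microRNA, and in Gap43 it was a G. The miR-92b word followed by A was present in 2.6% of tested genes. Of the genes with it, 7.67% were called higher in Rx-Dicer. For the other 6 words followed by A this share ran from 2.33% (miR-137) to 7.90% (miR-93) and 7.91% (miR-9), so miR-92b did not stand first. Nefm also held the miR-125b word, which 14.2% of genes held. Elavl3 held the miR-128 and miR-137 words and Stmn2 the miR-128 word, present in 20.7% (miR-128) and 9.44% (miR-137) of genes. Over all genes with the miR-92b word, 64 of 989, or 6.47%, were called higher in Rx-Dicer, against 1.74% of genes without it. For the other 6 microRNAs the share called higher ranged from 2.91% (miR-125b) to 5.44% (miR-93) with the word and from 1.55% (miR-93) to 1.93% (miR-125b) without it. Genes with a word also had longer 3′ UTRs, with medians of 2457 bases with and 932.5 bases without the miR-92b word, and the part of this difference in the shares was not tested. A seed match is a description of the sequence, and binding was not measured here. The levels of these microRNAs in the samples were not examined here either. In the paper's small RNA sequencing of this tissue, most of the significantly reduced microRNAs belonged to the let-7 family. By in situ hybridisation at a later embryonic stage, the paper also reported a substantial reduction of miR-9 in the mutants' rostral telencephalon.

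**Figure D2:**
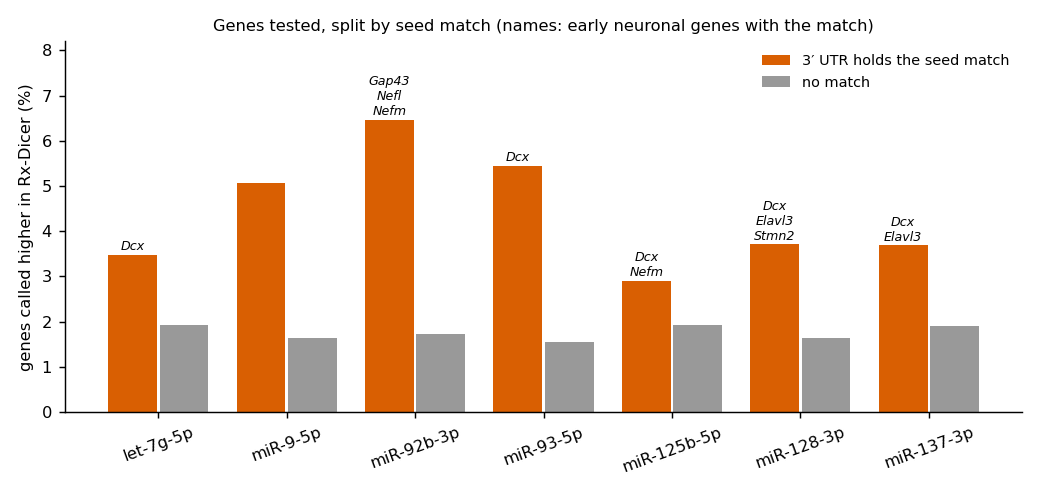
Percentage of tested genes called higher in Rx-Dicer (y axis, from 0), split for each of 7 microRNAs (x axis) into genes whose 3′ UTR holds the seed match (orange) and genes without it (grey). Names above the bars are the early neuronal genes with that match, with Nefl, Nefm and Gap43 above the miR-92b bar at 6.47%.

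Nefl encodes the light neurofilament subunit, on which the assembly of neurofilaments depends, and lies on chromosome 14 (GRCm38, 68083863 to 68089095, plus strand). Its normalised counts were 262.6, 382.9 and 484.7 in the controls and 1487, 593.0 and 1157 in Rx-Dicer. Every Rx-Dicer library exceeded every control, but the margin between the highest control and the lowest Rx-Dicer library was narrow. The means were 376.8 ± 111 and 1079 ± 452 (SD, n = 3 each), and the log2 fold change was 1.52 ± 0.29 (SE, DESeq2 adjusted p = 6.64e-05). Rx-Dicer libraries differed among themselves by 2.51 times, the widest range of the 10 genes in that group. The call was lost without control 2 (log2 fold change 1.53, adjusted p = 0.214, DESeq2). When the library labelled Rx-Dicer 2 was dropped, the log2 fold change was 1.81 and the call held.

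Nefm encodes the medium subunit and is the neighbour of Nefl (chromosome 14, 68082590 to 68124846, minus strand). Exons of the 2 genes overlap on opposite strands over 1108 bp, and because counting used the strand, reads of the 2 genes were kept apart. Nefm had 939.3, 1126 and 1440 normalised counts in the controls and 2506, 1564 and 1801 in Rx-Dicer. The groups did not overlap, although control 3 and Rx-Dicer 2 lay close together. The means were 1169 ± 253 and 1957 ± 490.0 (SD, n = 3 each), and the log2 fold change was 0.74 ± 0.20 (SE, DESeq2 adjusted p = 0.0179). The call was lost without control 1, control 2, Rx-Dicer 1 or Rx-Dicer 3 in turn, with adjusted p of 0.141, 0.182, 0.146 and 0.0784 (DESeq2). It held without control 3 and when the library labelled Rx-Dicer 2 was dropped, with a log2 fold change of 0.89 in the latter case (adjusted p = 0.00663, DESeq2).

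Ina encodes alpha-internexin, which is made early in neuronal life and can enter the same filaments. It lies on chromosome 19 (47014698 to 47025327, plus strand). Its normalised counts were 7282, 4154 and 5208 in the controls and 8321, 4644 and 5056 in Rx-Dicer. The 2 ranges overlapped almost completely, with replicate 1 the highest in each group. The log2 fold change was 0.11 with a 95% interval from -0.34 to 0.57 (DESeq2 adjusted p = 0.937), so a rise as large as that of Nefl lay outside the interval.

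The balance among the filament subunits was compared within each library, per kilobase of exon, which cancels the scaling between libraries. The Nefl level was 3.46%, 8.84% and 8.92% of the Ina level in the controls and 17.1%, 12.2% and 21.9% in Rx-Dicer. For Nefm the ratios to Ina were 7.23%, 15.2% and 15.5% in the controls and 16.9%, 18.9% and 19.96% in Rx-Dicer. Both ratios were higher in all 3 Rx-Dicer libraries, with the low ratio of control 1 resting on its low Nefl and Nefm and high Ina. The ratio of Nefl to Nefm was 47.8%, 58.2% and 57.6% in the controls and 102%, 64.9% and 110% in Rx-Dicer, with Rx-Dicer 1 and 3 apart from the other 4 libraries. Both ratios with Nefm depend on the 5782 bp of exon counted over its 2 annotated transcripts, and its level per kilobase is understated if the short isoform prevails. Each of these 3 ratios gave p = 0.1 in a two-sided exact permutation test, and 0.12 after adjustment over 6 ratios. As 0.1 is the smallest value that 3 against 3 samples allow, this test could not reach 0.05. The values of Nefl and Nefm alone already separated the groups, so their ratios to Ina are not a separate result. Ina made up the largest part of the 5 filament transcripts of neurons, with 78.5% to 89.3% of their summed level per kilobase in the controls and 69.6% to 76.0% in Rx-Dicer.

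**Figure D3:**
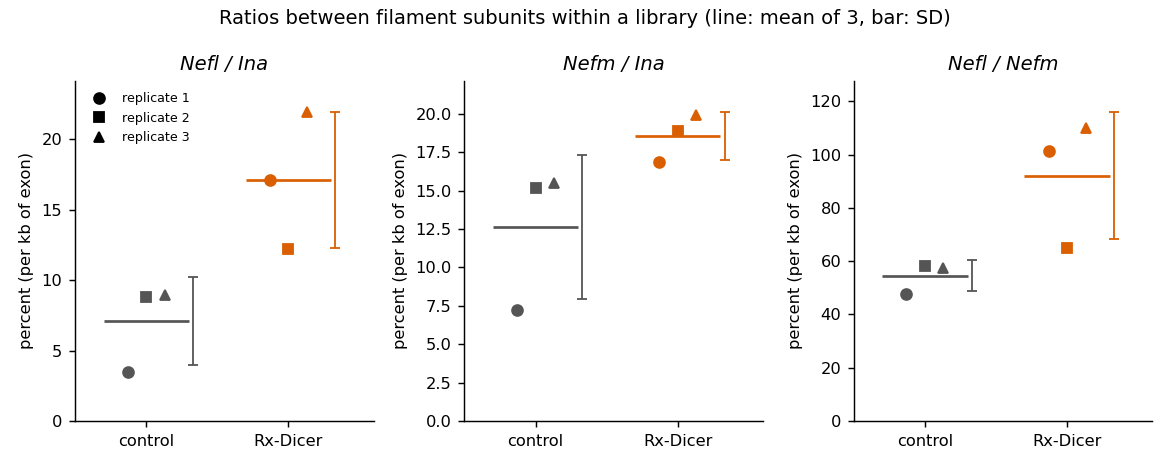
Ratio of Nefl to Ina, of Nefm to Ina and of Nefl to Nefm in each library, in percent, from normalised counts per kilobase of exon. Points are libraries with the replicate number as symbol, lines means of 3 and bars SDs. All Rx-Dicer points lie above all control points in each panel, and Rx-Dicer 2, at 64.9%, lies nearest to the controls for Nefl over Nefm.

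Of the 4 other intermediate filament genes listed, none was called. Nefh, the heavy neurofilament subunit, was near the detection limit, with 3.66, 8.15 and 19.7 normalised counts in the controls and 42.9, 19.4 and 36.1 in Rx-Dicer, where 3 counts corresponded to 2.57 to 3.66 normalised counts. Its log2 fold change was 1.62 ± 0.67 (SE, DESeq2 adjusted p = 0.205), and the highest control barely exceeded the lowest Rx-Dicer library. Prph, coding for peripherin of peripheral and some central neurons, had 56.2, 25.5 and 83.6 counts in the controls and 6.86, 4.08 and 39.9 in Rx-Dicer (log2 fold change -1.70 ± 0.72 SE, DESeq2 adjusted p = 0.230). The filaments of progenitors, Nes and Vim, had log2 fold changes of -0.37 (adjusted p = 0.287, DESeq2) and 0.17 (adjusted p = 0.576).

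Markers of other cells were measured beside the neurofilament genes. The microglial genes Cx3cr1 and Csf1r were 2 of 4 microglial markers called, both higher. In Rx-Dicer their order over libraries was the same as that of Nefl and Nefm, with replicate 1 highest and replicate 2 lowest. Tubb3, Stmn2 and Ina had this order in Rx-Dicer as well. In the controls the 2 microglial genes were highest in control 1, where Nefl and Nefm were lowest. The values of both microglial genes overlapped between the groups. The 4 markers together made up 12.3 to 18.6 CPM in the controls and 17 to 47.5 CPM in Rx-Dicer. Of the 8 markers of cranial ganglion and placode cells, whose neurons are rich in neurofilaments, none was called, and they summed to 9.70 to 31.6 CPM in the controls and 12.4 to 23.1 CPM in Rx-Dicer. The ganglion gene Tlx3 did not exceed 11.3 normalised counts in any library. Of 8 subpallial markers, Lhx6 was called higher and the others varied widely within each group, from 72.6 to 231 CPM in the controls and from 55.5 to 339 CPM in Rx-Dicer in sum. Of 8 pallial and Cajal-Retzius markers none was called, with sums of 252 to 495 CPM in the controls and 213 to 510 CPM in Rx-Dicer. Of 13 progenitor markers, Sox9, Pax6 and Fabp7 were called lower. edgeR called none of these marker genes, with adjusted p from 0.133 (Lhx6) to 0.271 (Csf1r). None of the markers of head mesenchyme (8), blood (6) or endothelium (4) was called, and blood transcripts ranged from 8541 to 22535 CPM over the 6 libraries. The part of these cells in the neurofilament values was not tested, and in bulk tissue fewer cells of a type and less RNA per cell cannot be told apart.

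Tubb3, the neuron-specific beta-tubulin that is widely used as the first marker of a neuron, was the most abundant of the 10 genes (chromosome 8, 123411424 to 123422015, plus strand). Its normalised counts were 32442, 28195 and 27173 in the controls and 29817, 21411 and 22494 in Rx-Dicer. Rx-Dicer 1 lay inside the control range and the other two below it. The log2 fold change was -0.25 ± 0.15 (SE, DESeq2 adjusted p = 0.520). Without Rx-Dicer 1 it was -0.42 and passed the threshold (adjusted p = 0.0246, DESeq2), so that this one library decided whether Tubb3 was called lower.

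Dcx, on chromosome X (143855842 to 143933311, minus strand), encodes doublecortin, which binds microtubules in migrating neurons. It had 10452, 6606 and 8230 normalised counts in the controls and 8392, 8778 and 5280 in Rx-Dicer. The groups overlapped and the log2 fold change was -0.17 ± 0.21 (SE, DESeq2 adjusted p = 0.859). Dcx was the one member with a let-7 seed match in the 3′ UTR used. Over all genes, those with the let-7 word had a median log2 fold change of 0.05 and those without it of 0.0036.

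Map2, on chromosome 1 (66175273 to 66442583, plus strand), encodes a protein that stabilises dendritic microtubules. Its normalised counts were 15650, 12018 and 12431 in the controls and 16000, 12683 and 12015 in Rx-Dicer. The 2 sets of values were nearly the same, and the log2 fold change of 0.02 had a 95% interval from -0.28 to 0.33 (DESeq2 adjusted p = 0.987). Its sign turned with the processing, and this gene is given no direction.

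Stmn2, on chromosome 3 (8509360 to 8561606, plus strand), encodes stathmin-2, a tubulin-binding protein of growing axons. It had 6962, 4940 and 5432 normalised counts in the controls and 6413, 4489 and 4746 in Rx-Dicer. Replicate 1 was the highest in each group and the groups overlapped. The log2 fold change was -0.15 ± 0.18 (SE, DESeq2 adjusted p = 0.854).

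Its relative Stmn3 was the one gene called among 22 other microtubule proteins, and it was lower. Stmn3 had 4390, 3851 and 4004 normalised counts in the controls and 3281, 2386 and 2347 in Rx-Dicer. The groups were well separated, with a log2 fold change of -0.61 ± 0.16 (SE, DESeq2 adjusted p = 0.00791). edgeR's quasi-likelihood test gave an adjusted p of 0.175 and did not call it. The paralogues Stmn1 and Stmn4 were not called, and Stmn4, with the smallest adjusted p of those left in the list, had a log2 fold change of -0.30 (adjusted p = 0.387, DESeq2). The next was Crmp1, a collapsin response mediator, at -0.30 (adjusted p = 0.400, DESeq2). The 22 genes had a median log2 fold change of -0.08, and 12 of them were below 0. In this list the log2 fold changes ran from -0.61 to 0.18.

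Gap43, on chromosome 16 (42248442 to 42340651, minus strand), encodes the growth cone protein GAP-43. Its normalised counts were 4723, 3457 and 3997 in the controls and 3347, 2855 and 2762 in Rx-Dicer. All Rx-Dicer values lay below all controls, with only a small step between Rx-Dicer 1 and control 2. The log2 fold change was -0.44 ± 0.15 (SE, DESeq2 adjusted p = 0.0841), which missed the threshold. Gap43 passed it without control 2 (adjusted p = 0.0332, DESeq2) and without Rx-Dicer 1 (adjusted p = 0.0307, DESeq2).

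Of 14 other growth cone and synaptic membrane proteins none was called by DESeq2 (1 had an unadjusted p under 0.05) and none by edgeR. The smallest adjusted p belonged to Syt1, the calcium sensor of synaptic vesicles, with 648.6, 365.6 and 376.7 normalised counts in the controls and 1037, 496.2 and 696.8 in Rx-Dicer. These values overlapped, and the log2 fold change was 0.68 ± 0.28 (SE, DESeq2 adjusted p = 0.193). Gpm6a, a membrane glycoprotein of growth cones, followed with a log2 fold change of 0.40 (adjusted p = 0.388, DESeq2). The median of the list was -0.02.

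Elavl3, on chromosome 9 (22015005 to 22052023, minus strand), encodes the neuronal ELAV-like protein HuC. It had 8197, 7055 and 7140 normalised counts in the controls and 5691, 6669 and 4500 in Rx-Dicer. The 3 Rx-Dicer values lay below the controls, with Rx-Dicer 2 the nearest to them. The log2 fold change was -0.41 ± 0.16 (SE, DESeq2 adjusted p = 0.152). It was -0.55 once the library labelled Rx-Dicer 2 was dropped, and then passed the threshold (adjusted p = 0.0136, DESeq2). A predicted gene, Gm49318, shares 256 bp of exon with Elavl3 on the same strand. In the union mode of counting, reads that touched that stretch were counted for neither.

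Elavl4, on chromosome 4 (110203722 to 110351909, minus strand), encodes the related protein HuD. Its normalised counts were 3444, 2411 and 2244 in the controls and 2437, 2250 and 2527 in Rx-Dicer. Control 1 stood above the other 5 libraries, which lay close together. The log2 fold change was -0.17 ± 0.17 (SE, DESeq2 adjusted p = 0.810). The ratio of Elavl3 to Elavl4 per kilobase overlapped between groups, with means of 221% ± 32.0 and 185% ± 46.3 (SD, n = 3 each, exact permutation p = 0.3).

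Among 18 other RNA-binding proteins none was called by DESeq2 (3 had an unadjusted p under 0.05) and none by edgeR. Elavl2, the third neuronal ELAV-like gene, had 5214, 4598 and 3913 normalised counts in the controls and 3108, 3805 and 3589 in Rx-Dicer. These ranges did not overlap, and the log2 fold change was -0.39 ± 0.15 (SE, DESeq2 adjusted p = 0.142). Ptbp1, a splicing repressor of non-neuronal and progenitor cells, was higher in each Rx-Dicer library, with a log2 fold change of 0.27 ± 0.11 (SE, DESeq2 adjusted p = 0.228). Elavl1, the ELAV-like gene active in most cells, had a log2 fold change of 0.07 (adjusted p = 0.922, DESeq2). The median of the list was -0.05.

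**Figure D4:**
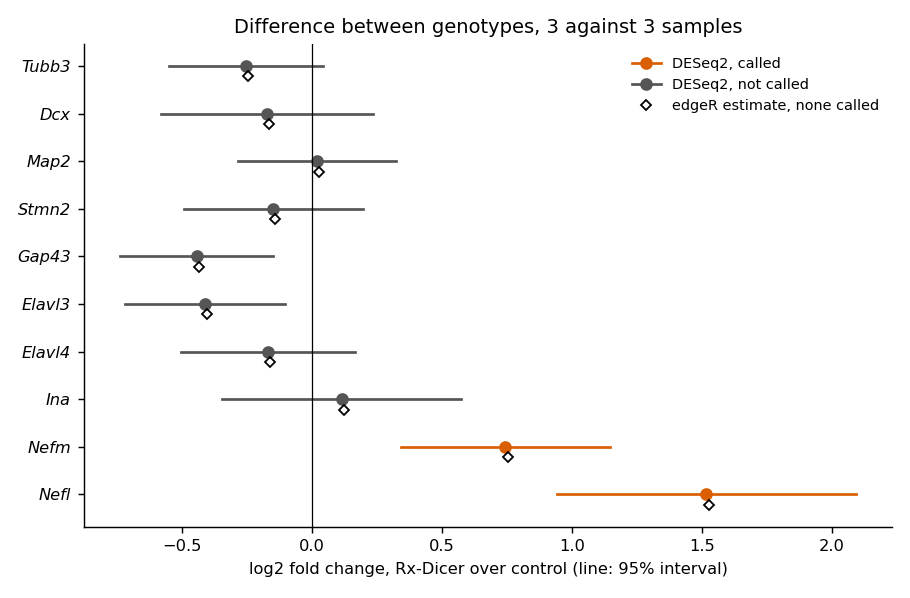
Log2 fold changes of the 10 early neuronal genes, Rx-Dicer over control, with DESeq2 95% intervals (orange called, grey not called) and edgeR estimates as open diamonds. The intervals of Nefm and Nefl lie above 0 and those of Gap43 and Elavl3 below 0 before adjustment, and edgeR called none of the 10.

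**Figure D5:**
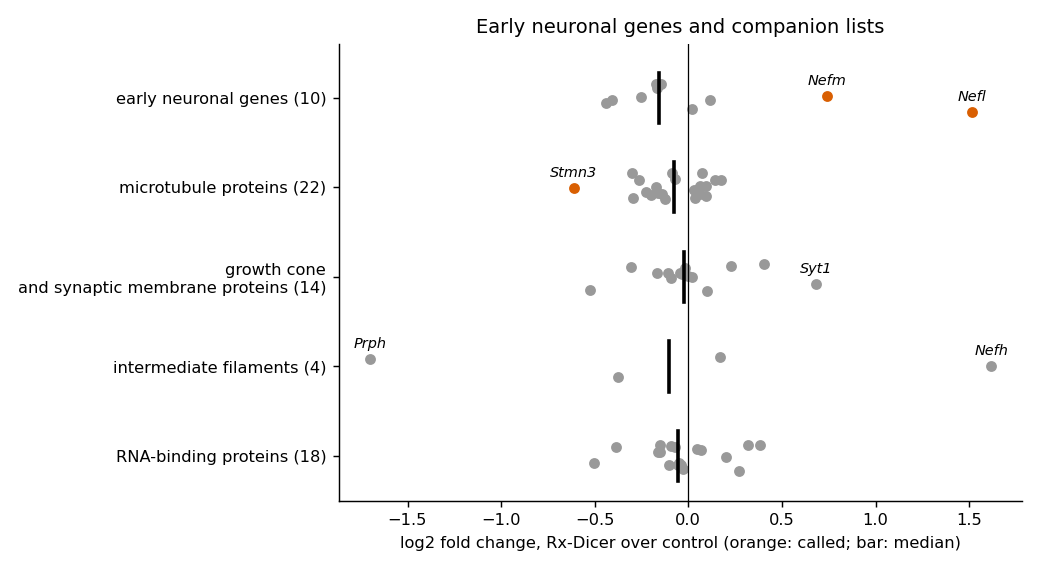
Log2 fold changes of the 10 early neuronal genes and of 58 genes in 4 companion lists, with a bar at each list's median and called genes in orange. Stmn3 is the one called companion gene, and Nefh and Prph lie farthest out without being called.

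Levels of different genes were compared per kilobase of the exons of all annotated isoforms. In the controls Tubb3 stood first with 15669 ± 1496 normalised counts per kilobase (SD, n = 3), rank 94 of 30829 genes with a count and a known length. Gap43 followed with 2665 ± 417 and Ina with 1712 ± 491 per kilobase. Elavl3 (1083 ± 92.3), Stmn2 (1031 ± 188), Map2 (813 ± 121), Dcx (667 ± 153) and Elavl4 (501 ± 121) came next, and the control ranges of each neighbouring pair among them overlapped. Nefm (202 ± 43.8) and Nefl (111 ± 32.9) came last. In Rx-Dicer the order began again with Tubb3 (13155 ± 2448), while Gap43 (1962 ± 206) and Ina (1854 ± 622) overlapped in their ranges, which they did not in the controls. Nefm (338 ± 84.7) and Nefl (319 ± 134) were again the lowest per kilobase, and their ranges overlapped. Map2, with 24 annotated transcripts, is placed too low in such an order if short isoforms prevail.

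Over the libraries several of these genes varied together. Control 1 was the highest control for 8 of the 10 genes and the lowest for the other two, Nefl and Nefm. Rx-Dicer 1 was the highest Rx-Dicer library for 7 genes. The highest control exceeded the lowest by 1.16 to 1.85 times, with a median of 1.47, and Rx-Dicer libraries differed by 1.12 to 2.51 times, with a median of 1.46. Pearson's r of a gene with the mean z-score of the other 9, over 6 libraries that share their scaling, was 0.97 for Stmn2, 0.93 for Map2 and 0.88 for Ina. It was 0.77 for Tubb3, 0.64 for Dcx, 0.62 for Gap43, 0.51 for Elavl4 and 0.27 for Elavl3. For Nefl it was -0.28 and for Nefm -0.20. The 5 other genes with the most similar profile to the mean of the 10, out of 12886 with at least 100 normalised counts on average, were Dubr, Aplp1, Cdk20, Slc1a3 and Chd5, with r between 0.97 and 0.99. None of the 5 was called, and their log2 fold changes lay between -0.27 and -0.05.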

How the data were processed

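Per the labels and the study's methods, total RNA was made into strand-specific libraries (NEBNext Ultra II Directional in the labels, Ultra Directional in the methods) and sequenced as paired 100-base reads. Reads were trimmed with Trim Galore 0.6.5, aligned to GRCm38.p6 with HISAT2 and counted per gene with HTSeq 0.12.4 (union mode, reverse strand). The authors deposited raw read counts per gene in 2 files for each of 6 samples. The 2 files of a sample differed little beyond sampling noise (chi-square per degree of freedom 1.13 to 1.52, against 22.5 to 32.6 between samples of a group) and were summed as 1 replicate. Rows that name no gene were left out. Reads without a feature were 8.15% to 13.2% of each library and ambiguous reads 1.86% to 2.24%.

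DESeq2 1.42.0 in R 4.3.3 (median-of-ratios size factors, genotype as the one term, independent filtering) was fitted on the whole table after the scripts were tested on simulated data. edgeR 4.0.16 was the second tool, for genes reaching 10 counts in 3 or more samples. Exon lengths, positions and 3′ UTRs came from GENCODE M21, which held 55144 of the 55471 identifiers, and microRNA sequences from RefSeq (GRCm38.p6). The release of the authors' annotation was not given in the sources used here. The 10 genes, the companion lists and the marker lists were chosen with earlier results of these data known. Named were the 10 genes, Dicer1, each companion gene called or otherwise the 2 of a list with the smallest adjusted p, and the 5 genes most correlated with the mean profile. Other genes were named after their values were seen. Where separate embryos or cultures are not stated, p-values measure only the spread between these samples. The floor of 3 counts and the tests cover counting error and this spread. The alternatives tried were other scalings, filters, thresholds, single files, a replicate block, a length and GC correction and the omission of each sample. The single values of some marker genes are not reported here.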

Additional observations from a re-analysis of the deposited data

How the results depend on the processing

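Of the 10 genes, 2 were called by DESeq2, and this count stayed at 2 with TMM or total-count scaling, with a filter on low counts, without independent filtering, with either file alone and with the length and GC correction, each time for Nefl and Nefm. It was 0 with edgeR, which also called 0 companion genes. Leaving out 1 sample gave counts from 1 to 3 and medians over the 10 genes from -0.24 to 0.029, the highest without control 1. Nefl kept its sign under all 17 alternatives (1.21 to 1.81 on the log2 scale) and was below the threshold under 3 of them. Nefm kept its sign (0.52 to 0.92) and was below the threshold under 6.

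The replicate numbers are shared between groups. Deviations from the group mean correlated at 0.27, -0.06 and -0.29 between same-numbered samples, without a common sign. The paper compared mutants with control littermates, and so few correlations cannot decide whether the numbers pair the samples. With the replicate block, 1 of the 10 genes (Nefl) and 4 companion genes (Stmn3, Cntn2, Syt1 and Prph) were called, and 1 (Nefm) when length and GC were corrected as well. Over all genes the calls went from 502 to 314 with the block, 322 without independent filtering, 8 with edgeR, 285 without control 2 and 309 without Rx-Dicer 3.

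Directions turned only for genes that were not called. Map2 became -0.086 with the length and GC correction and -0.083 when the block was added to it. Leaving out 1 sample at a time moved Map2 between -0.12 (without Rx-Dicer 1) and 0.15, being -0.049 without control 2 and -0.028 without control 3. It moved Ina between -0.20 (without Rx-Dicer 1) and 0.36, at -0.056 without control 2. Dcx moved between -0.32 and 0.027 (without Rx-Dicer 3), at 0.011 without control 1. Stmn2 moved between -0.32 and 0.0072 and Elavl4 between -0.28 and 0.046, with both upper values without control 1. The cause was not tested. With 3 samples a group, differences as small as those of most of these genes could not be told from 0.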
